A study of Arabidopsis thaliana with 12 samples.

Results

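The nucleus of Arabidopsis thaliana encodes many subunits of the photosystems. A set of 38 genes for such subunits and for linked electron transport, chosen by locus code, was followed through the mutant *melinoe*. The 38 comprise 12 photosystem I genes, 13 photosystem II genes, 7 genes of electron carriers, 3 chloroplast ATP synthase genes and 3 genes of cyclic electron flow. The carriers include PETC, a subunit of the cytochrome b6f complex. All 38 were among the 25169 genes listed in the deposited tables, and all 38 were among the 19424 genes that passed the low-count filter and were tested. *melinoe* is an ethyl methanesulfonate mutant of FMN/FHY (At4g21470), which encodes a bifunctional enzyme at the step between riboflavin and the flavin cofactor FMN. The groups were rosette leaves of wild type (Col-0) and *melinoe* rosette leaves of 3 classes, labelled green, green-white and white. All groups were raised alike after 48 h of stratification. They grew on 1% sucrose for the first weeks, at 22 °C with 16 h of light at 75 µmol m−2 s−1, then on soil. The labels give neither the number of plants in a library nor leaf position, age at harvest or the count of backcrosses, so leaf class and leaf stage cannot be told apart. Each group held 3 libraries with totals between 25795702 and 26760055 estimated counts. Nothing states that libraries came from separate plants, so the p-values reflect only library-to-library spread, which may be technical.

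Photosystem II takes electrons from water and passes them through the cytochrome b6f complex and plastocyanin to photosystem I, which reduces ferredoxin. Ferredoxin-NADP+ reductase (FNR), a flavoenzyme that carries FAD, then makes NADPH, and the proton gradient drives ATP synthase. The reaction-centre cores of both photosystems are encoded in the chloroplast, whose transcripts were not analysed here. The nucleus supplies many of the subunits around them. In cyclic electron flow, PGR5 and PGRL1 return electrons from ferredoxin to the plastoquinone pool.

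Transcripts of all 38 genes were lower in green-white and white *melinoe* leaves than in wild type, while in green leaves most were slightly lower, 4 were higher and 5 were not called. Of all counts, the 38 genes together made up 6.83 ± 0.109% in wild type and, in the mutant, 5.98 ± 0.125% in green leaves, 3.83 ± 0.0401% in green-white leaves and 2.64 ± 0.0262% in white ones (SD, n = 3). The libraries of the 4 groups did not overlap in this share. In bulk tissue, fewer cells of a type and less RNA per cell cannot be told apart. All further levels are CPM, counts as a proportion of the library total, after TMM factors had corrected that total for shifts in composition. Genes were called in edgeR's quasi-likelihood test where the p-value, adjusted by Benjamini-Hochberg over all genes, was under 0.05.

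In green leaves 29 of the 38 genes were called lower than in wild type and 4 higher, against 29.6% of all tested genes called lower and 28.7% called higher. In green-white leaves all 38 were called lower, against 38.8% of all genes lower and 34.1% higher. In white leaves all 38 were again called lower, against 40% of all genes lower and 39.9% higher. The median log2 fold change of the 38 over wild type was −0.21 in green leaves, −1.08 in green-white leaves and −1.71 in white leaves, while that of all tested genes was −0.01, −0.04 and −0.00. The 3 comparisons share the wild-type libraries. The authors' deposited table, at a q-value under 0.05, had 26 lower and 4 higher in green leaves and all 38 lower in both other classes.

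Between the mutant's own leaf classes, 37 of the 38 genes were called lower in green-white than in green leaves, with 29.9% of all genes lower and 29.6% higher as background. White against green leaves gave 37 lower, with 36.3% of all genes called in each direction. White against green-white leaves gave 34 lower and 2 higher, where 30.8% of all genes were lower and 33.5% higher. The exceptions were FD1 in the first of these comparisons, PGRL1B in the second, and PSB27 and PGR5, which were not called, with PSB28 and PGRL1B, which were higher, in the third. Scaling by library totals alone gave all genes a median log2 change over wild type of 0.22 in green-white leaves and 0.29 in white leaves and changed the background split, to 10320 genes higher and 4436 lower and to 11073 higher and 5123 lower. Changes across the divide between green and paler leaves are therefore given relative to the TMM-scaled background.

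**Figure D1:**
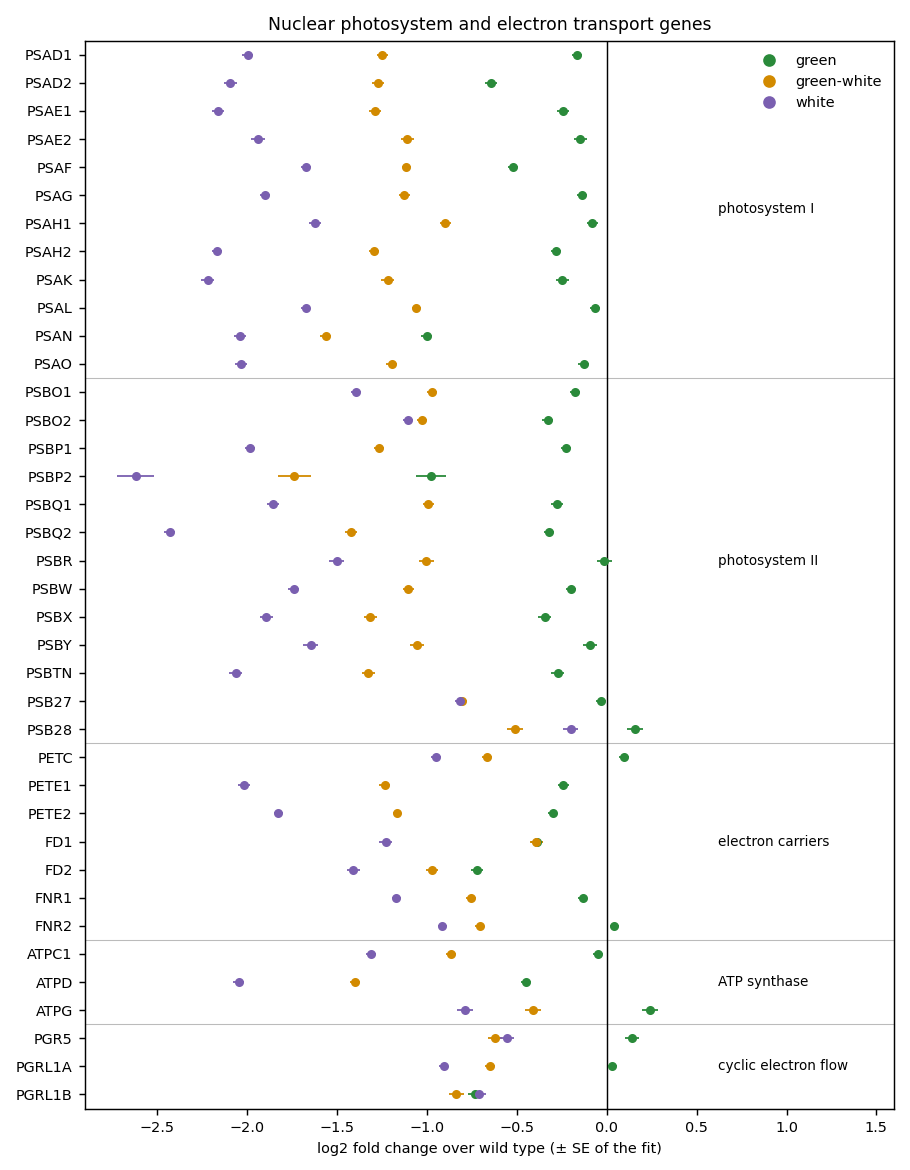
Log2 fold change over wild type (x axis, TMM-scaled edgeR fit, bars are the SE) for each of the 38 genes (y axis, grouped by complex) in green leaves, green-white and white leaves, 3 libraries per group. Photosystem I genes lie between −2.22 and −1.62 in white leaves, while photosystem II genes spread from −2.62 to −0.20.

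The complexes differed in how far they fell. The summed level of the 12 photosystem I genes was 83.1 ± 2.22% of wild type in green leaves, 44.1 ± 0.595% in green-white leaves and 26.7 ± 0.472% in white leaves (SD, n = 3). Photosystem II stood at 87.7 ± 3.84, 46.2 ± 0.947 and 31.7 ± 0.643% in the same order. The electron carriers stood at 86.6 ± 0.455, 53.0 ± 0.563 and 38.6 ± 0.217%. By their sums, ATP synthase and cyclic electron flow kept more of their level. ATP synthase genes summed to 98.3 ± 2.80% of wild type in green leaves, 57.8 ± 3.33% in green-white leaves and 42.5 ± 1.23% in white leaves, and cyclic flow genes to 100.5 ± 2.45, 63.4 ± 0.577 and 56.1 ± 1.04%. In white leaves the libraries of the 5 complexes did not overlap on this relative scale. These sums are led by the abundant genes and were not tested against each other. By median log2 change, ATP synthase stood lower than the carriers in green-white (−0.87 against −0.75) and white leaves (−1.31 against −1.23). In green leaves its median was the higher one (−0.05 against −0.24).

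**Figure D2:**
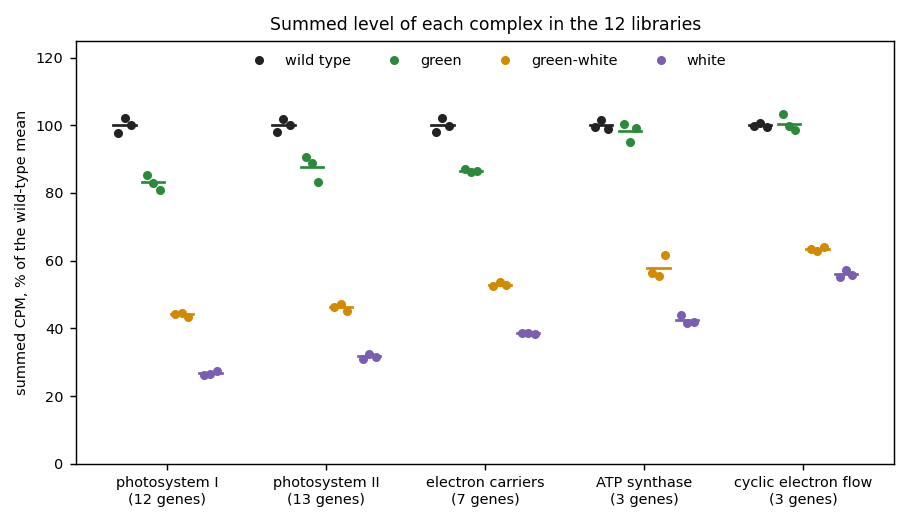
Summed CPM of each complex as a percentage of its wild-type mean (y axis) in the 12 libraries; points are libraries and lines are group means. In white leaves photosystem I sits lowest, at 26.7%, and cyclic electron flow highest, at 56.1%.

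All 12 photosystem I genes were called lower in all 3 leaf classes. The shares of all tested genes called lower were 29.6% (green), 38.8% (green-white) and 40% (white). The green calls of PSAL, PSAH1, PSAE2 and PSAO were lost when certain single libraries were left out. Those of PSAL and PSAH1 were also lost under some other settings, as given below. The stromal subunits PSAD and PSAE form the docking site of ferredoxin, each from a pair of genes. PSAD1 (AT4G02770) gave 2393, 2436 and 2429 CPM in wild type, 2159, 2169 and 2145 in green leaves, 1010, 1077 and 970 in green-white, and 586, 607 and 625 in white leaves. Its paralogue PSAD2 (AT1G03130) gave 1380, 1455 and 1402 CPM in wild type, 923, 893 and 898 in green leaves, 573, 564 and 616 in green-white, and 314, 329 and 349 in white leaves. Neither gene had overlapping groups. The log2 change of PSAD2 in green leaves was −0.64 ± 0.034 (SE, adjusted p = 5.0e-17) and that of PSAD1 −0.16 ± 0.030 (adjusted p = 1.9e-05), while in white leaves they stood at −2.09 ± 0.035 and −2.0 ± 0.031. The PSAE genes had −0.24 and −0.15 in green and −2.16 and −1.94 in white leaves for PSAE1 and PSAE2.

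PSAF and PSAN lie on the lumenal side, where plastocyanin delivers its electron, and they were the photosystem I genes that stood lowest in green leaves beside PSAD2. PSAN (AT5G64040) gave 1858, 1983 and 1909 CPM in wild type and 1006, 933 and 934 in green leaves. It gave 653, 661 and 633 CPM in green-white leaves and 460, 465 and 474 in white leaves. PSAN thus had a log2 change of −1.0 ± 0.030 in green leaves (adjusted p = 3.0e-23), with no overlap between any groups. PSAF (AT1G31330) gave 4338, 4407 and 4258 CPM in wild type, 3065, 2973 and 3020 in green leaves, 2026, 2005 and 1973 in green-white leaves and 1347, 1323 and 1409 in white leaves. The log2 change of PSAF was −0.52 ± 0.026 in green and −1.67 ± 0.027 in white leaves (adjusted p = 1.4e-17 and 2.3e-31).

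The remaining photosystem I genes encode membrane subunits: PSAG and PSAK beside the antenna, and PSAH, PSAL and PSAO on the side where mobile light-harvesting complex II docks. Their log2 changes in green leaves were small, from −0.28 for PSAH2 to −0.07 for PSAL. In white leaves they ran from −2.22 for PSAK to −1.62 for PSAH1. The PSAL call in green leaves (adjusted p = 0.029) ended when any 1 library of wild type or of green leaves was left out, with adjusted p between 0.10 and 0.60. It also ended with RLE factors, library totals, DESeq2 or a fit of the compared groups only, with adjusted p from 0.052 to 0.13. PSAH1 (adjusted p = 0.026) lost its green call without wild type B or C or any green library, with adjusted p between 0.14 and 0.55, and with library totals, DESeq2 or the fit of the compared groups only (0.067 to 0.081). Its green and wild-type values overlapped. PSAO lost its green call without green C (adjusted p = 0.063), and PSAE2 without wild type B (0.055), wild type C (0.066) or green C (0.10). Counts of PSAE1 and PSAG held fractions in every library, so both share reads with other annotated genes and are uncertain.

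The extrinsic proteins PSBO, PSBP and PSBQ sit on the lumenal face of photosystem II and keep the water-oxidising manganese cluster in place. PSBQ2 (AT4G05180) gave 2468, 2694 and 2634 CPM in wild type, 2150, 2074 and 2013 in green leaves, 970, 970 and 968 in green-white leaves and 495, 483 and 466 in white leaves. The groups did not overlap, and its white-leaf level was 18.5% of wild type, a log2 change of −2.43 ± 0.032 (adjusted p = 1.8e-33). PSBQ1 (AT4G21280) gave 1538, 1573 and 1565 CPM in wild type, 1353, 1288 and 1219 in green leaves, 780, 801 and 768 in green-white leaves and 440, 438 and 414 in white leaves. PSBQ1 fell by 1.86 on the log2 scale in white leaves, less than PSBQ2 did. PSBP1, the main PSBP gene, had log2 changes of −0.23, −1.27 and −1.98 in green leaves, green-white and white leaves.

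The PSBO pair behaved differently from the other extrinsic proteins between the paler leaf classes. PSBO1 (AT5G66570), the major isoform, gave 6075, 6194 and 6234 CPM in wild type, 5580, 5587 and 5205 in green leaves, 3141, 3210 and 3069 in green-white leaves and 2325, 2391 and 2314 in white leaves. PSBO2 (AT3G50820) gave 1783, 1750 and 1790 CPM in wild type, 1419, 1478 and 1340 in green leaves, 861, 877 and 875 in green-white leaves and 810, 843 and 819 in white leaves. The step from green-white to white leaves was −0.42 ± 0.027 for PSBO1 (adjusted p = 9.5e-15) and −0.08 ± 0.029 for PSBO2 (adjusted p = 0.019). The PSBO2 call ended without green-white B (adjusted p = 0.053), white A (0.088) or white C (0.058), and with library totals alone (0.24). PSBP2, whose annotated coding region is 378 bases against 792 for PSBP1, was the scarcest gene and stood furthest below wild type, with a log2 change of −2.62 ± 0.10 in white leaves. In wild type it gave 13.0, 11.8 and 13.5 CPM, against 1.67, 2.2 and 2.33 CPM in white leaves, so its change rests on few reads.

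PSBR, which stabilises the binding of the extrinsic proteins, was not called in green leaves. Its values there were 5973, 5833 and 5212 CPM beside 5548, 6076 and 5556 in wild type, and the groups overlapped (log2 change −0.01 ± 0.041, adjusted p = 0.79). In green-white leaves PSBR had −1.0 ± 0.041 and in white leaves −1.5 ± 0.042. The small membrane subunits PSBW, PSBX and PSBY and the lumenal PSBTN had log2 changes of −0.20, −0.35, −0.09 and −0.27 in green and −1.74, −1.89, −1.65 and −2.06 in white leaves. The PSBY call in green leaves (adjusted p = 0.05 after rounding) was lost without 1 of 10 libraries in turn, with adjusted p from 0.051 to 0.85, the highest without green B, and its groups overlapped. It was also lost with RLE factors, library totals, DESeq2 and the fit of the compared groups only, with adjusted p from 0.068 to 0.30.

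PSB27 and PSB28 act in the assembly and repair of photosystem II and are not parts of the finished complex. PSB27 (AT1G03600) gave 421, 438 and 429 CPM in wild type, 415, 430 and 416 in green leaves, 247, 253 and 236 in green-white leaves and 247, 246 and 238 in white leaves. It was not called between wild type and green leaves (adjusted p = 0.38, but called at −0.08 with upper-quartile factors, adjusted p = 0.031) and between green-white and white (adjusted p = 0.81), with overlapping values in both, and its log2 change from green to green-white was −0.78 ± 0.030 (adjusted p = 2.9e-20). PSB28 (AT4G28660) gave 83.4, 94.0 and 89.2 CPM in wild type, 104, 101 and 91.9 in green leaves, 63.6, 63.2 and 60.3 in green-white leaves and 75.1, 78.9 and 77.8 in white leaves. PSB28 was higher in green than in wild type (0.16 ± 0.043, adjusted p = 0.0025, with overlapping values) and higher in white than in green-white leaves (0.31 ± 0.044, adjusted p = 4.0e-07, without overlap). In white leaves it was lower than wild type with TMM factors (−0.20 ± 0.044, adjusted p = 0.00011) but higher with library totals alone (0.09, adjusted p = 0.042), so its direction there depends on the scaling.

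PETC, the Rieske iron-sulfur protein of the cytochrome b6f complex, was one of the 4 genes that were higher in green leaves. PETC (AT4G03280) gave 1199, 1246 and 1229 CPM in wild type, 1300, 1314 and 1309 in green leaves, 759, 812 and 744 in green-white leaves and 637, 627 and 639 in white leaves. The groups did not overlap. The green leaves had a log2 change of 0.09 ± 0.028 (adjusted p = 0.005, and 0.15 with upper-quartile factors), beside −0.67 ± 0.029 in green-white leaves and −0.95 ± 0.029 in white leaves. The plastocyanin genes, which encode the copper protein that reduces photosystem I, had larger changes. PETE2, the main gene, had −0.30, −1.17 and −1.83 in the 3 leaf classes and PETE1 −0.24, −1.24 and −2.02.

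The ferredoxins carry electrons from photosystem I, and both genes were called lower in all leaf classes. FD2 (AT1G60950), the main leaf ferredoxin, gave 1062, 1159 and 1182 CPM in wild type, 705, 669 and 687 in green leaves, 581, 567 and 586 in green-white leaves and 416, 421 and 444 in white leaves. The FD2 groups did not overlap, and it had a log2 change of −0.72 ± 0.033 in green leaves (adjusted p = 1.5e-18), −0.97 ± 0.033 in green-white leaves and −1.41 ± 0.034 in white leaves. FD1 (AT1G10960) gave 216, 230 and 234 CPM in wild type, 176, 177 and 167 in green leaves, 174, 179 and 165 in green-white leaves and 97.2, 96.1 and 96.6 in white leaves. FD1 thus stood at 76.4% of wild type in green and 76.2% in green-white leaves, with overlapping values (adjusted p = 0.93), and at 42.7% in white leaves. The step of FD2 from green to green-white leaves (−0.25) was not called with library totals alone (−0.02, adjusted p = 0.67). With library totals alone FD1 was higher in green-white than in green leaves (0.23, adjusted p = 5.5e-07).

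The leaf FNR genes were among the less affected carriers. FNR2 (AT1G20020) gave 1358, 1412 and 1358 CPM in wild type, 1438, 1398 and 1416 in green leaves, 834, 843 and 850 in green-white leaves and 740, 735 and 714 in white leaves. FNR2 was not called in green leaves (0.04 ± 0.026, adjusted p = 0.16), although it was called higher without wild type B (0.09, adjusted p = 0.0073) or without any 1 green library (adjusted p from 0.014 to 0.041) and with library totals alone (0.06, adjusted p = 0.032), and it had −0.71 ± 0.026 in green-white leaves and −0.91 ± 0.026 in white leaves. FNR1 (AT5G66190) had −0.13 ± 0.027 in green (adjusted p = 6.9e-05), −0.75 ± 0.027 in green-white leaves and −1.17 ± 0.027 in white leaves. Of the 2 proteins that hold FNR at the membrane, TIC62 had log2 changes of −0.60, −1.02 and −1.49 in the 3 leaf classes, all called. TROL had 0.01 in green leaves (adjusted p = 0.84) and −0.61 and −1.05 in the others.

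The 3 ATP synthase genes encode the gamma (ATPC1), delta (ATPD) and membrane-bound b' (ATPG) subunits, and in green leaves they were not called, lower and higher. ATPD (AT4G09650) gave 931, 959 and 912 CPM in wild type, 683, 672 and 697 in green leaves, 354, 357 and 350 in green-white leaves and 227, 223 and 227 in white leaves. ATPG (AT4G32260) gave 1308, 1325 and 1301 CPM in wild type, 1593, 1461 and 1587 in green leaves, 939, 917 and 1109 in green-white leaves and 796, 729 and 752 in white leaves. The log2 change in green leaves was −0.45 ± 0.027 for ATPD (adjusted p = 1.4e-15) and 0.24 ± 0.044 for ATPG (adjusted p = 2.7e-05), and in neither did any groups overlap. In white leaves ATPD had −2.05 ± 0.028 and ATPG −0.79 ± 0.045. ATPC1 lay between them, with −0.05 ± 0.027 in green (adjusted p = 0.13, but called at −0.09 with upper-quartile factors, adjusted p = 0.0059), −0.87 ± 0.028 in green-white leaves and −1.31 ± 0.028 in white leaves.

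The summed level of the cyclic electron flow genes stood nearest to wild type in white leaves among the 5 complexes, although the single gene with the smallest change there was PSB28. PGR5 (AT2G05620) gave 155, 158 and 159 CPM in wild type, 185, 177 and 158 in green leaves, 101, 104 and 101 in green-white leaves and 106, 110 and 105 in white leaves. It was higher in green than in wild type (0.14 ± 0.039, adjusted p = 0.0026), with overlapping values, and lower in green-white (−0.62 ± 0.040) and white leaves (−0.55 ± 0.040). PGRL1A (AT4G22890) was not called in green leaves (0.03 ± 0.026, adjusted p = 0.32), although it was called higher without green B (adjusted p = 0.039) or green C (0.033), and had −0.65 and −0.91 in the paler classes. PGRL1B (AT4G11960) gave 69.2, 72.3 and 71.9 CPM in wild type, 44.2, 41.8 and 42.6 in green leaves, 41.4, 40.4 and 37.7 in green-white leaves and 42.6, 44.0 and 43.6 in white leaves. PGRL1B therefore stood at about the same level in all mutant classes, from 56.0 to 61.0% of wild type. Its log2 change in green leaves was −0.73 ± 0.041 (adjusted p = 3.0e-16). The rise of PGRL1B from green-white to white leaves (0.12 ± 0.042, adjusted p = 0.012) was lost without green-white C (adjusted p = 0.11) and with DESeq2 (0.058). Its drop from green to green-white leaves (−0.10 ± 0.043, adjusted p = 0.038) was lost without green A (0.14), green C (0.053) or green-white C (0.22). It was also lost with RLE factors, no filter, DESeq2 or a fit of these groups only (adjusted p from 0.060 to 0.18), and with library totals alone PGRL1B was called higher (0.13, adjusted p = 0.010).

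The drop from wild type to white leaves can be divided into the steps from wild type to green, green to green-white and green-white to white. At the median of the 38 genes these steps made up 11.5, 51.5 and 35.9% of the log2 drop. For PSAN and FD2, 49.1 and 51.3% of the drop was already present in green leaves. The shares in green leaves were 37.3% for PSBP2, 31.5% for FD1, 31.2% for PSAF and 30.7% for PSAD2. PGRL1B showed its whole drop there, since its green level was no higher than its white level. In contrast, PSB27 made 95.1% of its drop between green and green-white leaves. The classes are not a time course, so the steps describe differences between groups of leaves.

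Levels of different genes were compared as scaled CPM per kilobase of the TAIR10.1 transcript with the longest coding region, which need not be the transcript model the authors counted on. PSBR had the highest level per kilobase of the 38 genes in every group, 7304 ± 386 in wild type and 2579 ± 156 in white leaves (SD, n = 3). PSAL came next in wild type at 4696 ± 116, ahead of PSBO1 at 4090 ± 54.9 and PSAO at 4061 ± 71.1 CPM per kilobase, and PSBO1 and PSAO did not differ beyond their spread. The lowest level was that of PSBP2, 12.6 ± 0.885 CPM per kilobase in wild type, and the next lowest that of PGRL1B, 47.8 ± 1.16. ATPG moved from rank 24 of the 38 in wild type to rank 12 in white leaves, and PSBO2 from rank 21 to rank 14. The opposite course was that of PSBQ2, from rank 13 in wild type to 24 in white leaves. PSAN went from rank 14 in wild type to 21 in green and 20 in green-white leaves and was at 15 in white leaves.

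**Figure D3:**
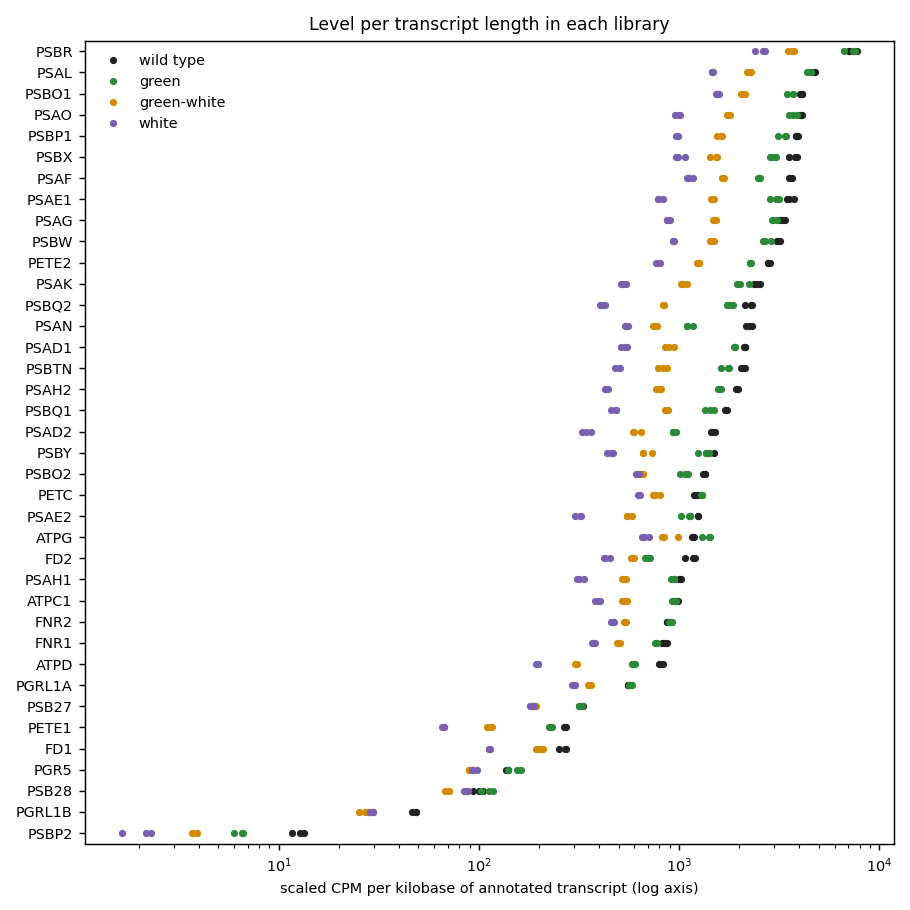
Scaled CPM per kilobase of annotated transcript (x axis, log scale) of the 38 genes (y axis, ordered by wild-type mean) in each of the 12 libraries. PSBR leads in all groups and PSBP2 is lowest, and for most genes the points run from wild type on the right to white leaves on the left.

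Among the 38 genes 10 pairs of paralogues encode the same kind of protein. In each pair the libraries of white leaves and wild type did not overlap in the share of the first-named gene. The coding sequences of a pair are between 40.3% (PSBP) and 87.0% (PSAH) identical, with no more than 38 identical bases in a row, so a small exchange of reads within a pair is possible. PSAH1 made up 47.5, 48.9 and 48.6% of the PSAH counts in wild type, 51.9, 52.1 and 51.8% in green leaves, 55.2, 54.9 and 55.6% in green-white leaves and 57.7, 57.3 and 58.3% in white leaves. PSBQ1 made up 38.4, 36.9 and 37.3% of the PSBQ counts in wild type and 38.6, 38.3 and 37.7% in green leaves, with overlap. The PSBQ1 share was 44.6, 45.2 and 44.3% in green-white leaves and 47.0, 47.5 and 47.1% in white leaves, above all wild-type values.

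PSAD1 rose from 63.1 ± 0.464% of the PSAD counts in wild type to 70.5 ± 0.392% in green leaves and stood at 63.5 ± 2.25% in green-white leaves and 64.7 ± 0.519% in white leaves (SD, n = 3). FD1 made up 16.7 ± 0.203% of the FD1 and FD2 counts in wild type, 20.1 ± 0.679% in green leaves, 23.0 ± 0.973% in green-white leaves and 18.5 ± 0.550% in white leaves. PGRL1A was at 91.9 ± 0.189% of its pair in wild type, 95.0 ± 0.0636% in green and 90.8 ± 0.0452% in white leaves. PSBO1 was at 77.7 ± 0.330% in wild type, higher in green leaves at 79.4 ± 0.333%, at 78.3 ± 0.404% in green-white leaves and lower in white leaves at 74.0 ± 0.159%. With 3 libraries against 3, the exact two-sided permutation test cannot give a p below 0.1, and each of these shares outside the overlapping cases, PSBQ1 in green leaves and PSAD1 and PSBO1 in green-white leaves, reached that value. Counts of PSAE1 held fractions in all libraries and those of PSAH1, PSAH2, PSBO1, PSBO2 and FNR1 in some, so the shares of their pairs are less certain.

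**Figure D4:**
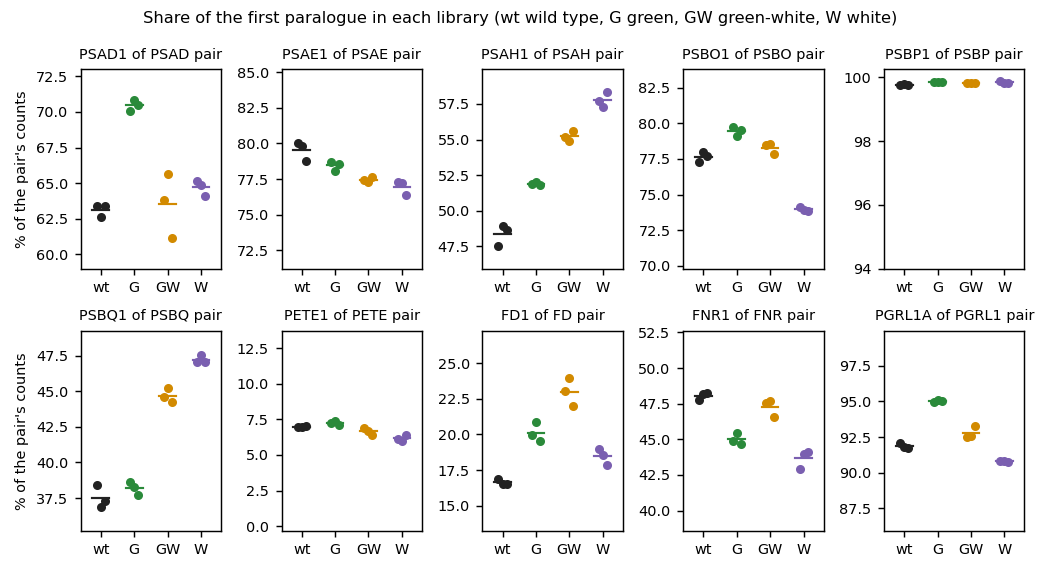
Share of the first-named paralogue in the scaled counts of its pair (y axis, %, one panel per pair, axes not starting at 0 and all but the PSBP panel spanning the same number of points) in wild type, green, green-white and white leaves; points are libraries and lines are means. The PSAH1 share is 48.4% in wild type and 57.8% in white leaves, and the PSAD1 share is highest in green leaves, at 70.5%.

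Since the genes lay lower together, their promoters were searched for short motifs known from light-regulated plant genes. The window ran from 250 bases before to 50 bases after the annotated gene start in RefSeq's TAIR10.1, and all 38 genes had one. The G-box CACGTG, a palindrome bound by bHLH and bZIP factors, was present in 14 of the 38 windows (36.8%) against 9.02% of the 19241 tested protein-coding genes. It was found in 9 of 13 photosystem II genes, 4 of 12 photosystem I genes, 1 of 3 ATP synthase genes, and in none of the 7 carriers or 3 cyclic flow genes. The I-box GATAAG, searched on both strands, was in 21 of 38 windows (55.3%) against 15% of tested genes. CCAATC on both strands was in 8 of 38 (21.1%, against 12.8%), the evening element AAAATATCT on both strands in 1 (2.63%, against 3.11%) and TATAAA on the gene's own strand in 12 (31.6%, against 35.7%). Matches of different motifs shared no bases in any of the 38 windows. A match is a description of the letters and not of a bound site.

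The windows of PSBQ1 (chr4:11334102-11334401, plus strand), PSBQ2 (chr4:2673194-2673493, minus strand) and PSAH2 (chr1:19454548-19454847, plus strand) are shown because each holds 2 G-boxes, and because PSBQ2 and PSAH2 fell further in white leaves than their paralogues. All are printed 5′ to 3′ on the gene's strand, from RefSeq's TAIR10.1, with CACGTG in capitals. PSBQ1 holds as many G-boxes as PSBQ2 and fell less. The other genes with log2 changes from −2.62 to −2.02 in white leaves were mixed. PSBP2 (−2.62), PSAE1 (−2.16), PSBTN (−2.06) and ATPD (−2.05) held 1 each. PSAK (−2.22), PSAD2 (−2.09), PSAN (−2.04), PSAO (−2.03) and PETE1 (−2.02) held none. A relation between the motif and the change was not tested.
PSBQ1: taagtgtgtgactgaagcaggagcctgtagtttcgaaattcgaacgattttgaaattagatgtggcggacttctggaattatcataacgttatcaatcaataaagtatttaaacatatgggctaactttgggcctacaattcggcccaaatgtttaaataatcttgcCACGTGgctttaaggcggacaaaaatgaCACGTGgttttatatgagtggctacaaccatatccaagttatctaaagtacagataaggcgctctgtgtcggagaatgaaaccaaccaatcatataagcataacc
PSBQ2: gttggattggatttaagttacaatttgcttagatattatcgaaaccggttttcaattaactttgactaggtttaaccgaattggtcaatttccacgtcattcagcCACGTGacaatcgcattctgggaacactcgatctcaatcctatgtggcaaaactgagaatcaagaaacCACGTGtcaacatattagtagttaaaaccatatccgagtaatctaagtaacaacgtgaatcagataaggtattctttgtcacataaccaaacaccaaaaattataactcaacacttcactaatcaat
PSAH2: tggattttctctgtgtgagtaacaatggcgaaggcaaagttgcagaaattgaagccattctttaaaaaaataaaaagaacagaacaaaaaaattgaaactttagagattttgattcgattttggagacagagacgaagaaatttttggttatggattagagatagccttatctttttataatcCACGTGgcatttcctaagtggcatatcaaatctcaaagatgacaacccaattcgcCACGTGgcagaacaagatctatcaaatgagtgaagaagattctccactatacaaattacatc

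PSAF (chr1:11216092-11216391, minus strand), low already in green leaves, and FNR1 (chr5:26453150-26453449, minus strand), a carrier gene with no G-box in its window, are shown for the I-box. Capitals mark GATAAG or its reverse complement CTTATC, with 3 matches in PSAF and 2 in FNR1. Among other genes low in green leaves, PSAD2, PSBP2 and PGRL1B held 1 I-box each, and PSAN, FD1 and FD2 held none. PETC, higher in green leaves, held 2. A relation between the motif and the change was not tested.
PSAF: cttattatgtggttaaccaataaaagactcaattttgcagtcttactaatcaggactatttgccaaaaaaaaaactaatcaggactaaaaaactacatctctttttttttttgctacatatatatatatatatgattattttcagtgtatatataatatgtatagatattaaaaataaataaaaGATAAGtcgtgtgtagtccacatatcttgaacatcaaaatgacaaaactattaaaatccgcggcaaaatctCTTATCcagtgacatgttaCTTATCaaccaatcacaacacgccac
FNR1: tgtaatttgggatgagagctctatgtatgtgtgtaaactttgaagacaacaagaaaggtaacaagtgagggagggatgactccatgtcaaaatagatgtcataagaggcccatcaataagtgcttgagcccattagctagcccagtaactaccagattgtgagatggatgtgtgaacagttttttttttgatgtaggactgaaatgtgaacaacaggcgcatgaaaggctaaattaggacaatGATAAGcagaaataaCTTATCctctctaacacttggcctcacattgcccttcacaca

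Other genes of the photosynthetic apparatus put these values in context, from lists chosen by function. The background is the share of all tested genes given above. It was 29.6% lower and 28.7% higher in green, 38.8% lower and 34.1% higher in green-white, and 40% lower and 39.9% higher in white leaves. The antenna, the light-harvesting proteins that bind to the photosystems, had 20 of 20 genes lower in green-white and white leaves with medians of −1.32 and −2.2, and 14 lower and 4 higher in green leaves with a median of −0.22. The Calvin cycle list of 16 enzymes had medians of −0.09, −0.80 and −1.19, with 9 lower and 3 higher in green leaves, 16 lower in green-white leaves and 15 lower in white leaves. Nuclear subunits of the NDH complex, which carries the other route of cyclic flow, had 5 lower and 5 higher of 17 in green leaves (median 0.02), close to the background of 29.6% lower and 28.7% higher. In green-white and white leaves 16 of the 17 NDH genes were lower, with medians of −0.81 and −1.24, from PNSL3 at −2.17 in white leaves to PNSB2, which was not called there (−0.01, adjusted p = 0.70).

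Assembly and repair factors, which build the complexes without staying in them, moved less than the subunits. Of 25 such genes 4 were lower and 12 higher in green leaves, 22 lower in green-white, and 18 lower and 4 higher in white leaves, with medians of 0.10, −0.35 and −0.28. Of all tested genes, 29.6% were lower and 28.7% higher in green, 38.8% lower in green-white, and 40% lower and 39.9% higher in white leaves. HCF173, needed to translate the photosystem II core protein D1, had 0.48 in green leaves (adjusted p = 5.1e-16). LQY1, a repair protein of photosystem II, was the lowest of the list, at −1.12 in green-white leaves and −1.55 in white leaves (adjusted p = 6.6e-24 and 1.0e-27). LPA1, an assembly factor of photosystem II, had 0.29 in white leaves (adjusted p = 4.2e-08). These contrasts between lists are descriptions of counts and medians and were not tested.

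The list of other ferredoxins, FNR genes and thylakoid regulators held 13 genes, of which FD4 was at or near 0 and not tested. Of the 12 tested, 5 were lower and 2 higher in green leaves, 10 lower in green-white, and 9 lower and 1 higher in white leaves. The background was again 29.6% lower and 28.7% higher in green, 38.8% lower in green-white, and 40% lower and 39.9% higher in white leaves. FD3, the ferredoxin of non-green tissue, had −0.84 in green (adjusted p = 5.1e-10), −0.29 in green-white (0.0012) and 0.07 in white leaves (0.40). FDC1, a ferredoxin-like protein with an extended C terminus, had −0.19, −0.92 and −0.79, all called. Its relative FDC2 had −0.07 in green leaves, not called (adjusted p = 0.20), and −0.55 and −0.54 in the others. The root-type genes RFNR1 and RFNR2 had −0.99 and −1.13 in white leaves. The kinase gene STN7, which drives state transitions, had 0.27 in green (adjusted p = 4.9e-09) and −0.21 in green-white leaves (adjusted p = 6.0e-07) and was not called in white leaves (−0.05, adjusted p = 0.13).

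**Figure D5:**
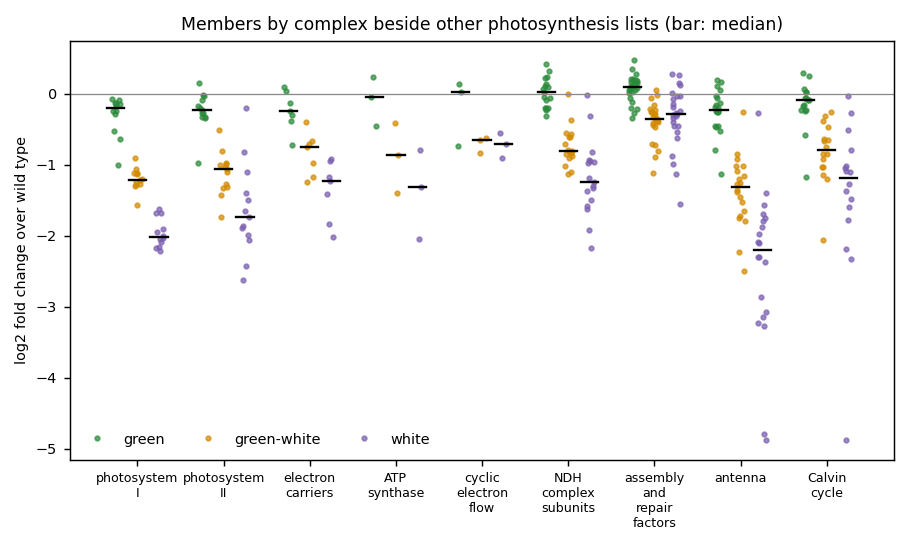
Log2 fold change over wild type (y axis) of every gene in the 5 complexes and in 4 other photosynthesis lists (x axis), by leaf class; points are genes and bars are medians. The white-leaf median is −2.02 for photosystem I, −2.2 for the antenna and −0.28 for assembly and repair factors.

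Leaf markers outside the 38 genes (RBCS1A, RCA and CA1) were abundant in all groups, with sums of 27169 to 27823 CPM in wild type, 28328 to 30367 in green leaves, 17815 to 18241 in green-white leaves and 13184 to 13266 in white ones. Of these 3 markers 1 was lower and 1 higher in green leaves, and all 3 were lower in both paler classes. Over wild type, the median log2 change of the 3 was −0.06 (green), −0.64 (green-white) and −1.11 (white). The lowest single marker stood at −0.30, −1.31 and −3.46 in the same order, and the highest at 0.29, −0.47 and −0.78. For all marker lists, the background over wild type was 29.6% lower and 28.7% higher in green leaves. It was 38.8% lower and 34.1% higher in green-white, and 40% lower and 39.9% higher in white leaves. Vascular markers were lower in all mutant classes, 5 of 5 in each. Their sums were 287 to 301 CPM in wild type and 229 to 236 in green leaves. The sums were 216 to 222 in green-white leaves and 138 to 142 in white leaves. By median log2 change over wild type the vascular order differed from that of the sums. The green class had the lowest median, −2.18, with 4 of the 5 markers below −1. The paler classes had medians of −0.59 (green-white) and −1.26 (white). Between green and green-white leaves, 4 vascular markers were called higher in the latter and 1 lower, with a median of 1.17. Of all tested genes, 29.6% were higher and 29.9% lower in that comparison. Epidermis markers summed to 917 to 946 CPM in wild type, 523 to 530 in green leaves, 659 to 667 in green-white leaves and 660 to 675 in white leaves, with 4 of 4 lower in green and 3 lower and 1 higher in the other classes. Guard cell markers summed to 45.8 to 48.0 CPM in wild type, and their mean sum was 109.3% of wild type in green leaves, 71.6% in green-white leaves and 82.8% in white ones. Of these 3 markers, 1 was lower and 2 higher in green leaves, 2 lower in green-white leaves, and 2 lower and 1 higher in white ones. Floral markers were at a low level, summing to 1.43 to 2.74 CPM in the other groups and 5.60 to 5.96 CPM in white leaves, where 2 of 3 were called higher than in wild type. No list had a member at 0 in a whole group. The part of these differences in the changes of the 38 genes was not tested. Libraries carried TMM factors of 0.903 to 0.929 in wild type and green leaves and 1.08 to 1.12 in green-white and white leaves, and the factors cannot be told apart from the groups.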

How the data were processed

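Rosette-leaf RNA of 4 groups of 3 libraries was sequenced from strand-specific libraries of polyadenylated RNA on a DNBSEQ platform, as the labels' protocols state. Per the labels, SOAPnuke 1.5.2 cleaned the reads and HISAT2 2.0.4 mapped them to the TAIR10 genome. Bowtie2, RSEM and DESeq2 appear in the submitters' processing notes without versions or roles. The sources used here give neither the gene models nor the strandedness of the counting. Overlapping genes on the opposite strand (of PSAE1, PSAE2, PSAG, PSAH1, PSAH2, PSAN, PSBP1, PSBP2, PSBR and FNR1) or on the same strand (of PSAD2, PSBP1 and FD1) could therefore exchange reads with them.

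The authors deposited 3 tables with expected counts per gene and library, and their own log2 fold change, p-value and q-value, per the file headers. The 12 columns of TPM, which repeat across these tables for wild type, were not used. The wild-type values were identical in all tables. Of the 25169 genes in their union, 23214 were in every table, and 9750 missing values were set to 0. All gene identifiers matched the TAIR10.1 annotation, which gave locus codes, coordinates and promoter windows; the tables hold no coordinates. Columns name the group and a letter.

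Rounded to whole numbers, the counts were fitted by edgeR 4.0.16 under R 4.3.3: TMM factors, the default low-count filter (19424 genes), group means over all 12 libraries with 8 residual degrees of freedom, and the quasi-likelihood test with Benjamini-Hochberg adjustment over all tested genes for all 6 pairs of groups. The SE of a log2 fold change is its size divided by the square root of F. The common biological coefficient of variation was 0.0272, so small differences pass the test, and sizes stand beside calls. The chi-square statistic per gene between 2 libraries of the same group was 1.55 to 3.75, and each library counted once. Shares of a paralogue used an exact permutation test in SciPy 1.17.1. Counts and medians describe each list, and no list was tested as a set. The workflow was tested on simulated data. The 38 genes and all lists were chosen with earlier results of these data known. All 38 genes may be named, with, from each other list, the called genes of highest and lowest change and every ferredoxin and FNR gene; TROL, TIC62, STN7 and PNSB2 were added for their roles after their values were seen. Alternatives were RLE, upper-quartile and no scaling factors, no filter, DESeq2 1.42.0, fits of the 2 groups compared only, and leaving out each library.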

Additional observations from a re-analysis of the deposited data

Results flagged for a closer look

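In 4 genes the comparison with wild type was called in opposite directions, higher in green leaves and lower in both paler classes. The rule for flagging also required a call in the comparison with green leaves. The p-values of that comparison are therefore part of the selection and no separate support. PSB28 was 0.16 higher in green leaves on the log2 scale, and green-white leaves differed from green leaves by −0.668 (adjusted p = 2.3e-14) and white leaves by −0.358 (adjusted p = 9.7e-09). The difference of PSB28 in white leaves was not called with library totals alone (−0.08, adjusted p = 0.076).

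PETC was 0.09 higher in green leaves, and the green-white and white classes differed from green by −0.761 (adjusted p = 1.4e-20) and −1.04 (adjusted p = 9.8e-25). With upper-quartile factors PETC was not called higher in green leaves than in wild type (0.05, adjusted p = 0.15), so its flag depends on the scaling. ATPG was 0.24 higher in green leaves and differed by −0.647 (adjusted p = 5.9e-14) and −1.03 (adjusted p = 2.3e-19). PGR5 was 0.14 higher in green leaves and differed by −0.76 (adjusted p = 5.3e-17) and −0.694 (adjusted p = 2.0e-16). All adjusted p-values are from edgeR's quasi-likelihood test over all genes. In PSB28 and PGR5 the green and wild-type libraries overlapped, while in PETC and ATPG they did not. Groups of 3 libraries were not screened for an outlying value, while leaving out each library in turn was among the alternatives.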

How the results depend on the processing

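No paired analysis was possible because the columns carry letters that nothing ties to the replicate numbers of the labels. The count of genes lower in green than in wild type was 29 and ran from 26 to 31 over the other settings and from 24 to 29 when single libraries were left out; in green-white leaves it stayed at 38 and in white leaves at 37 or 38. Scaling by library totals alone gave 1 gene higher in white than in wild type, 2 higher in green-white than in green and 1 higher in white than in green leaves, where TMM gave 0. The 2 genes higher in white than in green-white leaves became 1 with DESeq2 and 3 with library totals alone (with PGR5 at 0.11, adjusted p = 0.014), and 1 to 2 when single libraries were left out (1 without green-white C). Medians of the 38 genes over wild type ranged from −0.26 to −0.15 in green, −1.15 to −0.83 in green-white and −1.79 to −1.41 in white leaves.

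Directions that turned were nearly all of values not called. In green leaves the cyclic flow median became −0.01 with upper-quartile factors, FNR2 −0.0023 and PGRL1A −0.014. PSBR became 0.0043 with library totals and ran from −0.0195 to 0.0768 with single libraries left out, above 0 without wild type B or green C. PSB27 ran from −0.0304 to 0.0146, above 0 without wild type B, green A or green C. In green-white against green leaves, FD1 became 0.0146 with RLE factors, 0.0142 with DESeq2 and 0.23 with library totals, and ran from −0.0310 to 0.0261 with single libraries left out, above 0 without green A, green B or green-white C. PGRL1B became 0.13 with library totals in that comparison, and in white against green leaves −0.0172 with upper-quartile factors and −0.0143 to 0.0323 with single libraries left out, below 0 without green B or green C. In white against green-white leaves, PSB27 became 0.0342 with library totals and −0.0368 to 0.0129 with single libraries left out, above 0 without green-white B or white C. PSB28 in white leaves became 0.0937 with library totals. The PSAD1 share in green-white leaves, 0.367 points above wild type, ran from −0.681 to 1.56 points with single libraries left out, below 0 without green-white B. Paralogue shares in the authors' TPM, a listed alternative, were not run. The cause of these changes was not tested.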
